A study of Mus musculus with 4 samples.

Results

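The genes described here are 7 basic leucine zipper transcription factors that form AP-1 dimers or pair with their subunits: Fos, Junb, Jund, Atf2, Atf4, Maf and Maff. They were chosen by name, as every probe annotated to a single one of these genes and read on all 4 arrays. This gave 8 probes of the 9480 on the array, or 7 of the 6025 genes that the 6566 probes with 1 gene cover. Maf had 2 probes, called by their numbers 9308 and 10907. RNA came from mouse embryonic stem (ES) cells, cultured pluripotent cells derived from the early embryo. They were kept without feeder cells, and serum was returned for 4 h after 72 h of starvation. The mutants were fosBd/d, homozygous for an allele whose only product is ΔFosB, the truncated form of the AP-1 subunit FosB, and fosB-null. Each mutant was set against wild-type ES cells on 2 cDNA arrays of 2 colours with the dyes exchanged, so that the mutant was in Cy3 on replicate 1 and in Cy5 on replicate 2. The labels name no separate cultures or clones, so the spread between arrays may be technical.

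AP-1 is a dimer that binds DNA through a basic region and holds together through a leucine zipper. Fos proteins need a partner of another family, such as a Jun protein, whereas Jun proteins also pair with each other. ATF and Maf proteins can pair with subunits of AP-1. The partner shifts the preferred DNA site between the AP-1 site and the cAMP response element (CRE). Fos and Junb are immediate early genes whose RNA serum induces quickly and briefly. Small Maf proteins such as Maff lack a transactivation domain and act through their partners, among them the antioxidant regulator Nrf2.

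Promoter windows from RefSeq (GRCm38.p6, 250 bases before to 50 after an annotated start) were found for 6 of the 7 genes, all but Maf. The 100 bases before the start are shown for Fos and Maff, whose array values ran alike, for Atf4, and for Jund and Atf2, which had the largest mean ratios in size among the members, in fosBd/d and in fosB-null respectively. Capitals mark TGACG on either strand, the core of the CRE. Each line gives the gene strand, 5′ to 3′.
Fos, chr12:85473790-85473889, plus strand: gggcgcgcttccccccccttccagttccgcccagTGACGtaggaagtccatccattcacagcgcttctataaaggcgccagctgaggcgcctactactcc
Maff, chr15:79347420-79347519, plus strand, second of 3 annotated starts: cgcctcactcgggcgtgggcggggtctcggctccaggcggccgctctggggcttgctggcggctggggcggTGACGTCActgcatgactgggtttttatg
Atf4, chr15:80255084-80255183, plus strand: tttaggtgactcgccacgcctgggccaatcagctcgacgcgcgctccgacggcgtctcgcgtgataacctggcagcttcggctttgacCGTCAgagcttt
Jund, chr8:70697639-70697738, plus strand: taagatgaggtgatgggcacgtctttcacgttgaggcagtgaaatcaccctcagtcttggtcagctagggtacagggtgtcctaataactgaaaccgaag
Atf2, chr2:73892640-73892739, minus strand: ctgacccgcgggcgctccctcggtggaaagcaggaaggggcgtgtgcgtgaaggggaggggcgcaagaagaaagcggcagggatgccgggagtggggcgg

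TGACG began 66 and 129 bases before the Fos start, 106 bases before the Junb start, 12 bases before and at base 41 after the Atf4 start, and 122 bases before the third Maff start. The full CRE, TGACGTCA, which contains the core on both strands, was found 29 bases before the second Maff start. Of 32851 promoter windows of this length, 20.8% held TGACG and 1.79% held TGACGTCA on either strand. The AP-1 site TGACTCA was in 5.20% of the windows and in none of the 8 windows of these 6 genes. These are matches of letters and not binding sites.

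All values below are log2 ratios, and the log scale rests on the software's definition of its log ratio as log10. Which way the ratios run could not be settled. Exact zeros carry a minus sign on fosBd/d replicate 1 and fosB-null replicate 2, the mark that multiplication by -1 leaves, so those arrays appear to have been turned before deposit. As deposited, arrays with the mutant in the same dye correlated negatively over all probes (r = -0.46 for replicate 1 of both mutants and -0.37 for replicate 2). With the apparent turning undone, these were 0.46 and 0.37. The 2 arrays of each mutant also correlated negatively as deposited (r = -0.12 in fosBd/d and -0.32 in fosB-null). Means and counts of shared signs below thus rest on arrays that did not agree over all probes. Read by the dye names, a positive value means more RNA in fosBd/d cells but less RNA in fosB-null cells. For fosBd/d, positive thus likely means higher in the mutant. For fosB-null, values are printed as deposited, followed by the turned sign where a direction is read. Read by the colour words of the labels, which call Cy3 red, both of these directions reverse. SDs of all probes were 0.82 and 0.65 on the fosBd/d arrays and 0.44 and 0.54 on the fosB-null arrays.

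None of the members differed from wild type in limma after adjustment over all probes, in either mutant. In fosB-null the largest mean in size among the members was that of Atf2, the only member past 1.5-fold on both arrays of a mutant. In fosBd/d the largest were those of Jund and Fos, at 1.41-fold and 1.38-fold. In size these exceeded the means of only 77.8% and 75.5% of the probes with 1 gene. The members did not move as a block, and their order differed between the mutants.

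**Figure D1:**
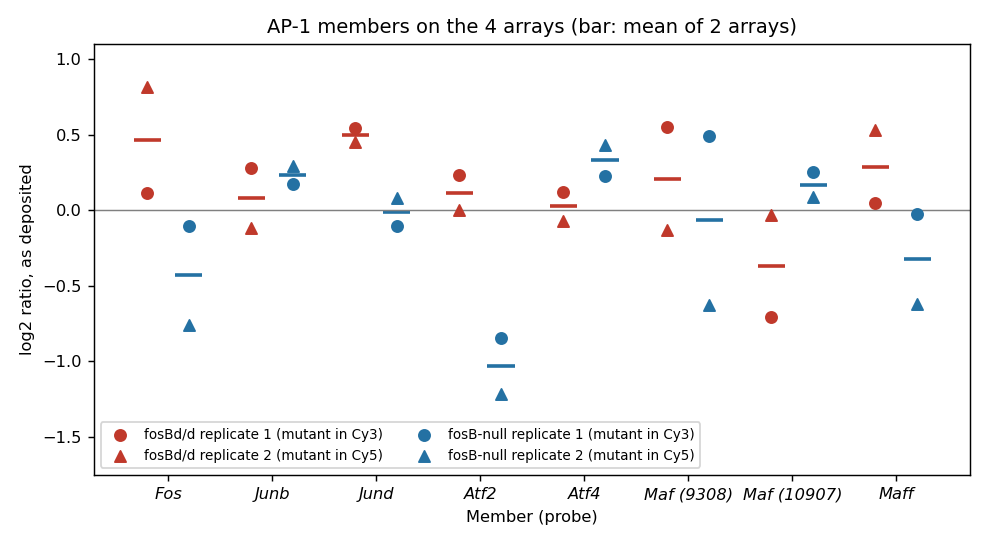
Log2 ratio against wild type, as deposited, of the 8 member probes on each of the 4 arrays (red, fosBd/d; blue, fosB-null; circles, mutant in Cy3; triangles, mutant in Cy5; bars, mean of 2 arrays). Atf2 in fosB-null stands lowest, at -0.85 and -1.21, and the Jund values in fosBd/d lie closest together, at 0.55 and 0.45.

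Fos, the founding subunit of the family, lies on chromosome 12 (85473890 to 85477274, GRCm38.p6). In fosBd/d it stood at 0.11 on replicate 1 and 0.82 on replicate 2, a mean of 0.47 ± 0.50 (SD, n = 2 arrays). Both arrays were positive, but the arrays differed by more than their mean. In fosB-null the deposited values were -0.10 and -0.76, a mean of -0.43 ± 0.46, which reads 0.43 with the sign turned. The adjusted p in limma was 0.299 in fosBd/d and 0.651 in fosB-null. In each mutant the array with the mutant in Cy5 held the large value and the array with the mutant in Cy3 was near 0.

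The Jun family was represented by Junb and Jund, both on chromosome 8. Jund, a constitutive Jun protein that restrains growth in many cells, spans 70697739 to 70700616. It stood at 0.55 and 0.45 in fosBd/d, a mean of 0.50 ± 0.07, and at -0.10 and 0.08 in fosB-null, a mean of -0.01 ± 0.13. It was the member probe with the highest mean in fosBd/d and the smallest SD there, and in fosB-null its arrays fell on either side of 0. Its adjusted p in limma was 0.297 in fosBd/d and 1 in fosB-null. Every probe with a smaller unadjusted p in limma shares this 0.297, so it does not rank Jund first. The unadjusted p of Jund in fosBd/d was 0.023 in limma, where 15.9% of probes were under 0.05.

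Junb, a serum-induced Jun protein, spans 84976909 to 84978748. It stood at 0.28 and -0.12 in fosBd/d, a mean of 0.08 ± 0.28. In fosB-null it was at 0.17 and 0.29, a mean of 0.23 ± 0.08, or -0.23 with the sign turned. The fosBd/d arrays thus disagreed in sign, while the fosB-null arrays agreed. Adjusted p values in limma were 0.686 and 0.651.

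Atf2, a CRE-binding factor that stress kinases phosphorylate and that pairs with Jun, lies on chromosome 2 (73816509 to 73892677). It stood at -0.85 and -1.21 in fosB-null, a mean of -1.03 ± 0.26 or 2.04-fold, and at 1.03 with the sign turned. In size, this mean exceeded that of 99.3% of the probes with 1 gene. In fosBd/d it was at 0.23 and at exactly 0, a mean of 0.12 ± 0.16. The 0 is 1 of 423 exact zeros on that array and may stand for a value that was not estimated. The adjusted p in limma was 0.651 in fosB-null and 0.704 in fosBd/d.

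Atf4, the effector of the integrated stress response, whose protein level is set largely by translation, lies on chromosome 15 (80255184 to 80257545). Its values in fosBd/d were 0.12 and -0.07, a mean of 0.03 ± 0.13, the mean closest to 0 among the members. In fosB-null it stood at 0.23 and 0.43, a mean of 0.33 ± 0.15, or -0.33 with the sign turned. Adjusted p values in limma were 0.878 and 0.651.

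Maf, a large Maf protein with a transactivation domain, lies on chromosome 8 (115703253 to 115706894), and its 2 probes disagreed. Probe 9308 stood at 0.55 and -0.13 in fosBd/d and at 0.49 and -0.63 in fosB-null. Probe 10907 stood at -0.71 and -0.03 in fosBd/d and at 0.25 and 0.09 in fosB-null. The means were 0.21 ± 0.48 and -0.37 ± 0.48 in fosBd/d, and -0.07 ± 0.79 and 0.17 ± 0.12 in fosB-null. On fosBd/d replicate 1 the probes lay on opposite sides of 0, so no direction is given for this gene. Their average was -0.08 in fosBd/d and 0.05 in fosB-null.

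Maff, the small Maf, lies on chromosome 15 (79346621 to 79359078). It stood at 0.05 and 0.53 in fosBd/d, a mean of 0.29 ± 0.34, and at -0.02 and -0.62 in fosB-null, a mean of -0.32 ± 0.43, or 0.32 with the sign turned. As with Fos, the large values were those of replicate 2 in both mutants. Adjusted p values in limma were 0.327 and 0.651.

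In fosBd/d, 3 of the 8 member probes (Fos, Jund and Maff) were positive on both arrays, where 24.7% of the 6566 probes with 1 gene were, and 1 (Maf probe 10907) was negative on both, where 23.7% were. On replicate 1 alone 7 of the 8 were positive and on replicate 2 alone 3 were, beside 47.0% and 49.7% of all genes. The median of the 7 genes was 0.12 in fosBd/d, beside -0.02 over all 6025 genes. In fosB-null as deposited, 3 probes (Junb, Atf4 and Maf probe 10907) were positive on both arrays, where 19.4% of probes were, and 3 (Fos, Atf2 and Maff) were negative on both, where 21.7% were. The median was -0.01, beside 0.00 over all genes. In fosBd/d, 0 member probes were past 1.5-fold on both arrays, where 3.91% of probes were positive and 1.29% negative by that rule. In fosB-null, Atf2 was past it on the negative side, where 0.548% of probes were, and 0 were past it on the positive side, where 0.624% of probes were. At 2-fold on both arrays, 0 member probes were counted in either mutant, where 1.52% of probes were positive and 0.259% negative in fosBd/d, and 0.198% and 0.0761% in fosB-null. By the mean of the arrays alone, 0 member probes passed 1.5-fold in fosBd/d, where 7.51% of probes were positive and 9.09% negative. In fosB-null, 0 passed it on the positive side, where 2.89% of probes did, and Atf2 did on the negative side, where 1.71% did.

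In limma with a dye term, 0 of the 9480 probes had an adjusted p under 0.05 in either mutant, so the background of calls was 0%. At an unadjusted p under 0.05, the members counted were Jund and Fos in fosBd/d, where 15.9% of probes were counted, and Atf2 and Fos in fosB-null, where 6.10% were. Without the dye term 1 member probe was counted in each mutant, beside 709 of the 9480 probes in fosBd/d and 179 in fosB-null. With the dye term set by the labelled dye, 0 were counted in fosBd/d, beside 270 probes in all, and 1 in fosB-null, beside 47. With an array left out, 0 were counted in fosBd/d, beside 351 to 973 probes, and 0 to 1 in fosB-null, beside 46 to 179. The smallest adjusted p of any probe was 0.297 in fosBd/d and 0.651 in fosB-null.

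The mutants were then compared with each other through wild type, first as deposited and then after turning fosB-null. Both comparisons rest on the wild-type cells of these arrays, which were not checked to be of a single line. As deposited, the fosBd/d values of 6 of the 8 probes did not overlap the fosB-null values, where 36.8% of probes did not. They were Fos, Jund, Atf2 and Maff, with higher deposited values in fosBd/d, and Atf4 and Maf probe 10907, with lower ones. Neither reading of the labels gives this comparison. By the dye names the difference is that with the sign turned, and by the colour words its reverse. With the sign turned, Junb, Jund, Atf2 and Atf4 did not overlap, where 30.5% of probes did not. Jund, Atf2 and Atf4 were thus apart with either sign of fosB-null, Fos, Maff and Maf probe 10907 only as deposited, and Junb only with the sign turned. The share of all probes apart with either sign was not counted, so this is not read as a trait of these genes.

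For Jund the difference was 0.51 ± 0.13 (limma SE) as deposited and 0.48 ± 0.13 with the sign turned, with adjusted p values of 0.358 and 0.524. The fosBd/d values lay above those of fosB-null with either sign of fosB-null, since the fosB-null mean was close to 0. For Atf2 the difference was 1.15 ± 0.23 as deposited and -0.91 ± 0.23 with the sign turned (adjusted p = 0.357 and 0.524 in limma), so its direction depended on the sign of fosB-null. For Fos the difference was 0.90 ± 0.13 as deposited (adjusted p = 0.357 in limma) and 0.04 ± 0.13 with the sign turned (0.904). The SE of the Fos difference was 0.48 when taken from the spread of the arrays without a dye term. For Maff the differences were 0.61 ± 0.13 and -0.03 ± 0.13 (adjusted p = 0.357 and 0.914 in limma), with an SE of 0.38 from the spread of the arrays. Atf4 stood at -0.30 ± 0.13 and 0.36 ± 0.13 and Junb at -0.15 ± 0.16 and 0.31 ± 0.16, each with an adjusted p of 0.406 or above in limma. In these comparisons 0 of the 9480 probes passed. At an unadjusted p under 0.05, 4 member probes were counted as deposited, where 13.9% of probes were, and 1 with the sign turned, where 9.12% were. With the dye term set by the labelled dye, 0 were counted with either sign, beside 153 and 141 probes in all. Without the dye term 1 was counted with each sign, beside 539 and 361. Read by the colour words, each difference given with the sign turned takes the other sign.

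**Figure D2:**
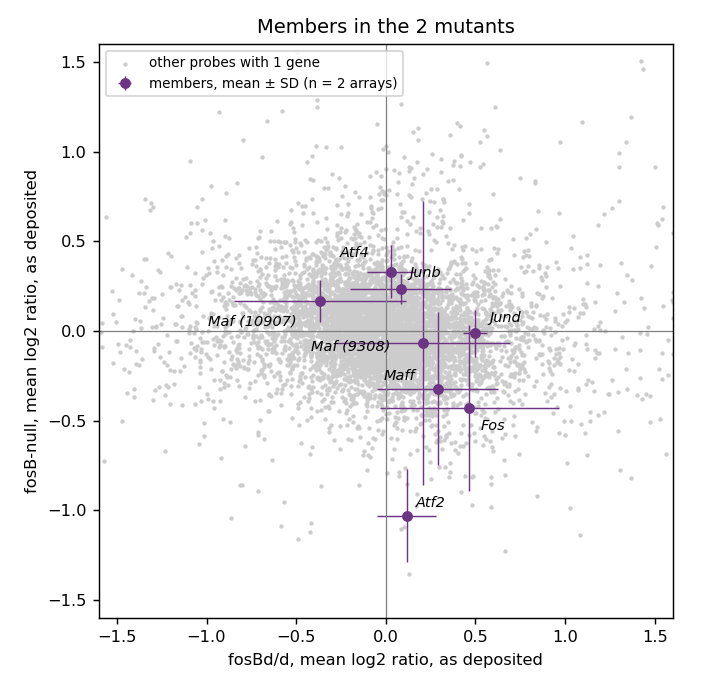
Mean log2 ratio in fosB-null (vertical) against fosBd/d (horizontal), as deposited, for the members (mean ± SD, n = 2 arrays) and for the other probes with 1 gene (grey; 89 probes lie beyond the axes). Atf2 stands apart at -1.03 in fosB-null, and Jund lies near 0 there and at 0.50 in fosBd/d.

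Averaging a swap with the turning undone gives the dye direction, the part of each value that follows the dye and not the mutant. For Fos it was 0.35 in fosBd/d and 0.33 in fosB-null, and for Maff 0.24 and 0.30, positive in both mutants. With the turning undone Fos stood at 0.82 and 0.76 on the arrays with the mutant in Cy5, and at -0.11 and -0.10 on those with the mutant in Cy3. For Jund the dye direction was -0.05 in fosBd/d, a small part of its value of 0.50 there. In fosB-null the Jund dye direction was -0.09, larger in size than its mean of -0.01. For Atf2 it was 0.18 in fosB-null, against a mutant direction of -1.03. The dye direction was larger in size than the mutant direction for 3 of the 8 probes in fosBd/d, where 46.2% of probes had this, and for 2 in fosB-null, where 56.7% had it. The dye given to the mutant and the replicate number are the same on these arrays and cannot be told apart.

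**Figure D3:**
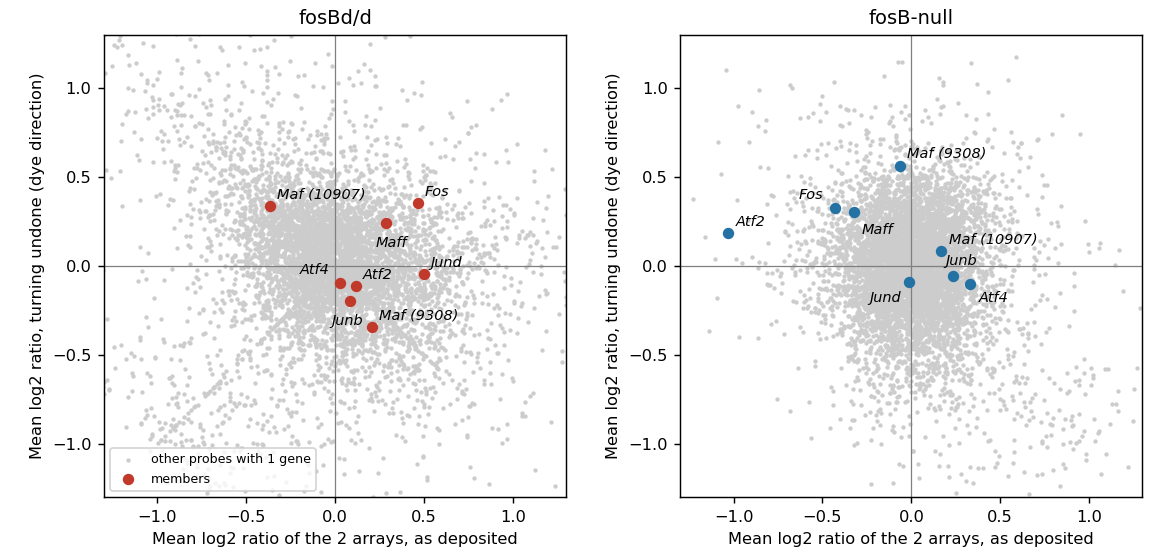
Mean log2 ratio as deposited (horizontal, mutant direction) against the mean with the apparent turning undone (vertical, dye direction) in fosBd/d (left) and fosB-null (right), for members (coloured) and other probes with 1 gene (grey; 276 and 23 probes lie beyond the axes). Fos and Maff have a positive dye direction in both mutants, from 0.24 to 0.35, while Jund in fosBd/d lies near the horizontal line.

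Likeness between patterns was measured as the Euclidean distance over the log2 ratios of the 4 arrays, a description that shares array and dye between its points. Among the members the nearest pairs were Junb and Atf4, at 0.22, and Fos and Maff, at 0.33. Of the 6565 other probes with 1 gene, 13 were nearer to Fos than Maff was, and 24 were nearer to Junb than Atf4 was. The 2 Maf probes lay 1.47 apart, with 4492 probes nearer to probe 9308 than its partner. The 3 probes nearest to Fos were Polr2a (0.19), the largest subunit of RNA polymerase II, the sterol enzyme Nsdhl (0.21) and Rbms2 (0.25). Nearest to Jund were the amino acid transporter Slc36a1 (0.09), Surf4 (0.12) and the adhesion molecule Epcam (0.12). Nearest to Atf2 were Crmp1 (0.25), the matrix protein Tnc (0.34) and Cplx2 (0.41). Nearest to Atf4 were the cytokine receptor chain Il6st (0.05), Ppp4r1 (0.13) and the CRE-binding factor Creb1 (0.13). For Junb they were Fam160b1, BC051537 and Lockd, from 0.09 to 0.13, and for Maff Epb41l1, Brpf3 and Gnpda1, from 0.10 to 0.12. Dock10 (0.22), Amn and Itih4 were nearest to Maf probe 9308, and Fzd8 (0.10), Pnn and Mzt1 to probe 10907.

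Of the 19 other Fos, Jun, ATF and Maf genes listed, 2 had a probe with 1 gene. Fosb, Jun, Fosl1, Fosl2 and Atf3 were not analysed here, so the targeted gene gives no check of the labels. Atf6, a membrane-bound factor of the unfolded protein response, stood at 0.22 ± 0.01 in fosBd/d and at 0.01 ± 0.13 in fosB-null. Atf6b differed in sign between the arrays of each mutant.

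Genes around AP-1 are given by counts, since no gene of these lists passed limma after adjustment over all probes in either mutant. Probes were averaged per gene. Over all 6025 genes, 25.0% were positive and 24.2% negative on both fosBd/d arrays, and 19.5% were positive and 21.9% negative on both fosB-null arrays. On single arrays, 47.0% and 49.7% were positive and 48.1% and 47.6% negative in fosBd/d, and 47.7% and 48.5% were positive and 51.5% and 49.6% negative in fosB-null. The lists, those of cell types included, were made from textbook roles with earlier results of these data known. Each count is set beside these shares as a description and is no independent support. Highest and lowest mean the extremes among list genes with the same sign on both arrays, and in fosB-null they are as deposited and trade places with the sign turned. Genes with mixed signs or a 0 could lie further out, such as the kinase Mapk9 in fosBd/d, at -4.14 and 0.15, and the protease Mmp9, at 0 and -1.33, both chosen after their values were seen.

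Of 11 other bZIP partner genes measured, 2 were positive and 3 negative on both fosBd/d arrays, and 3 and 2 on both fosB-null arrays, with medians of -0.01 and 0.12. Creb3l1, a factor of secretory cells, was at 1.03 ± 0.24 in fosBd/d and -0.50 ± 0.41 in fosB-null. Nfe2l3 was lowest in fosBd/d, at -0.46 ± 0.30, and the circadian repressor Nfil3 highest in fosB-null as deposited, at 0.78 ± 0.50 (-0.78 with the sign turned). Bach1, a partner of small Maf proteins that represses Hmox1 and was chosen after its values were seen, stood at 0.87 ± 0.32 in fosBd/d.

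Of 26 kinases and factors upstream of AP-1, 7 were positive and 4 negative on both fosBd/d arrays (median 0.05). In fosB-null as deposited, 3 were positive and 10 negative on both (median -0.08). On the fosB-null arrays taken singly, 15 and 18 were negative. Map3k1, which activates the JNK pathway, was highest in fosBd/d, at 0.89 ± 0.35, and stood at 0.50 ± 0.11 in fosB-null as deposited, the highest there, or -0.50 with the sign turned. The p38 kinase Mapk13 was lowest in fosB-null as deposited, at -0.81 ± 0.16 (0.81 turned), and Rps6ka3 lowest in fosBd/d, at -0.27 ± 0.31.

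Of 19 AP-1 target genes, 12 were positive and 2 negative on both fosBd/d arrays, with a median of 0.36, and 14 were positive on each array singly. The keratin Krt8 was highest at 1.74 ± 0.12 and the cyclin Ccnd1 lowest at -0.45 ± 0.01. Krt8 is also an endoderm marker. In fosB-null 3 were positive and 4 negative on both, with a median of -0.03. Fth1, the ferritin heavy chain, was highest there as deposited, at 0.41 ± 0.34 (-0.41 turned), and the hyaluronan receptor Cd44 lowest, at -0.68 ± 0.45 (0.68 turned).

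Of 18 serum immediate early genes, to which Fos and Junb belong by their biology, 10 were positive and 1 negative on both fosBd/d arrays, with a median of 0.41. Singly, 14 and 13 were positive. The matrix protein Ccn1 was highest at 1.45 ± 0.10, and Gadd45a was lowest at -0.15 ± 0.14. In fosB-null 4 were positive and 4 negative on both, with a median of -0.07. There, Mcl1, a survival factor, was at 0.20 ± 0.27 and the small GTPase Rhob at -0.45 ± 0.34.

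ATF4 target genes, which serve amino acid synthesis, transport and the stress response, lay on the other side. Of 15 measured, 8 were negative and 2 positive on both fosBd/d arrays, with a median of -0.44 and array medians of -0.42 and -0.44. Singly, 11 and 10 were negative. Psph, the last enzyme of serine synthesis, was lowest at -0.91 ± 0.31. Others, chosen after their values were seen, were Bcat1 (-0.89 ± 0.14), the mitochondrial folate enzyme Mthfd2 (-0.78 ± 0.09), the transporter Slc7a5 (-0.65 ± 0.35) and the glutathione-degrading Chac1 (-0.60 ± 0.23). Ppp1r15a, which reverses the block of translation, was highest at 1.05 ± 1.17, with arrays far apart at 1.88 and 0.23. The RNA of Atf4 itself stood at 0.03 ± 0.13 in the same comparison. In fosB-null as deposited 6 were positive and 0 negative on both arrays, with a median of 0.15, and 9 and 12 were positive singly. Stc2 was highest there at 0.41 ± 0.08, and Bcat1, at 0.15 ± 0.02, lowest of the 6.

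Of 19 target genes of small Maf partners and the antioxidant response element, 6 were positive and 6 negative on both fosBd/d arrays (median 0.00). In fosB-null as deposited 11 were positive and 1 negative on both, with a median of 0.16, and 16 and 13 were positive singly. Malic enzyme Me1 was highest in fosBd/d, at 1.52 ± 0.03, and stood at 0.59 ± 0.14 in fosB-null as deposited, the highest there, or -0.59 with the sign turned. Gsta3 was lowest in fosBd/d at -0.72 ± 0.07, and the epoxide hydrolase Ephx1 lowest in fosB-null at -0.43 ± 0.10. With the fosB-null sign turned, each fosB-null count and median reads the other way.

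**Figure D4:**
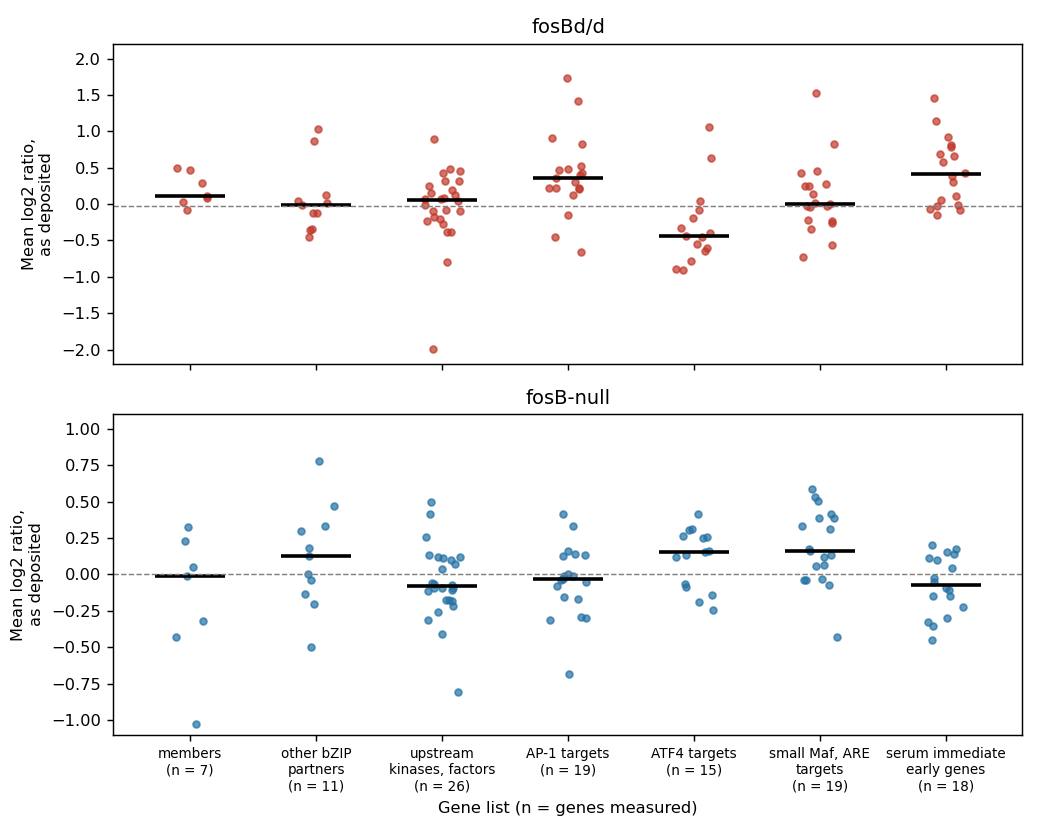
Mean log2 ratio of each gene, as deposited, by list in fosBd/d (top) and fosB-null (bottom, on a narrower scale). Black bars are list medians and dashed lines the median of all genes; the ATF4 target list has the lowest median in fosBd/d, -0.44, and the AP-1 targets and serum immediate early genes lie above 0, at 0.36 and 0.41.

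Among the cell type lists, the markers of extraembryonic endoderm stood furthest off 0 in fosBd/d. Of 25 extraembryonic endoderm markers, 21 were positive and 0 negative on both arrays, with a median of 1.71 and array medians of 1.68 and 1.59. They ran from Rbp4, at 0.25 ± 0.20, to the tissue factor F3, at 2.94 ± 0.11. Of 8 pluripotency markers, 2 were positive and 4 negative on both arrays (median -0.38), with Utf1 at 0.45 ± 0.27 and Nr5a2 at -0.82 ± 0.16. In fosB-null as deposited, 5 endoderm markers were positive and 11 negative on both arrays (median -0.15), with Cited1 at 1.19 ± 0.20 and Thbd at -1.45 ± 0.62. Of the pluripotency markers 1 was positive (Nr5a2, 0.24 ± 0.02) and 6 negative there (median -0.28), with Dppa2 lowest at -0.50 ± 0.28. Of 16 feeder fibroblast markers, 7 were positive and 3 negative on both fosBd/d arrays (median 0.09), and 1 and 6 on both fosB-null arrays as deposited (median -0.16). In fosB-null 3 of them were past 1.5-fold on the negative side on both arrays, where 34 of all 6025 genes were. The array with the mutant in Cy3 had a feeder median of -0.35 there and the other -0.06. Tnc, the second nearest gene to Atf2, is on this list, and the part of these markers in the Atf2 value was not tested. Of 10 neural and mesoderm markers, 2 were positive and 3 negative in fosBd/d (median -0.14), and 2 and 5 in fosB-null (median -0.09). The ends of the feeder list in fosBd/d were Acta2 (0.71 ± 1.00) and Loxl1 (-0.76 ± 0.43). In fosB-null as deposited they were Mgp (0.18 ± 0.10) and Tnc (-0.85 ± 0.03). The ends of the neural and mesoderm list in fosBd/d were Eomes (0.42 ± 0.12) and Ncam1 (-0.51 ± 0.04). In fosB-null as deposited they were Mesp1 (0.51 ± 0.36) and Kdr (-0.47 ± 0.40). The part of these markers in the values of the AP-1 members, AP-1 targets and ATF4 targets was not tested. In such bulk RNA, fewer cells of a type and less RNA per cell cannot be told apart. Pou5f1, Nanog and Sox2 were not analysed here, and ratios hold no level, so the labelled cell type was not checked.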

How the data were processed

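RNA was labelled with the Agilent Linear Amplification kit and hybridised to Agilent mouse cDNA arrays, per the labels. The authors deposited 1 log ratio per probe and array, taken as log10 because the submitters' processing notes name Agilent Feature Extraction. For its version, background correction, dye normalization and filters, the entry is: not given in the sources used here. Multiplying the deposited values by log2(10) gave log2 ratios, with no further normalization. Intensities were not analysed here, and the number of arrays limits the precision.

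Probes were named from a platform table of 2007, with symbols updated through RefSeq gene identifiers (6496 of 6566 probes with 1 gene). All 9480 probes were fitted in limma 3.58.1 (R 4.3.3), each mutant having its own coefficient, plus a dye term signed by the apparent turning. This left 1 residual degree of freedom. The two-sided p-values were adjusted by Benjamini-Hochberg over all probes (threshold 0.05). Replicate numbers follow accession order. Alternatives were no dye term, the replicate block, arrays scaled to a common spread, quantile normalization, robust moderation, gene averages, each mutant's sign turned and each array left out.

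The members and lists were chosen with earlier results of these data known. Outside the members, the named genes were the highest and lowest of each list among genes of the same sign on both arrays, and the 3 nearest probes of each member. Exceptions are marked.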

Additional observations from a re-analysis of the deposited data

Results flagged for a closer look

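Some members had all fosBd/d arrays on one side of 0 and all fosB-null arrays on the other, as deposited. They were Fos (difference 0.90), Maff (0.61) and Maf probe 10907 (-0.54). The share of all probes that meet this rule was not counted, so the flag is not read as a trait of the members. None of these differences passed limma after adjustment over all probes (adjusted p = 0.357, 0.357 and 0.393). With the fosB-null sign turned, the arrays of the mutants overlapped for these 3 probes. By either reading of the labels, opposite deposited signs mean the same direction in both mutants. Groups of 2 arrays allow no check for an outlying array.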

How the results depend on the processing

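In limma 0 of 9480 probes passed in each of the 4 comparisons under every alternative fitted to probes on all 4 arrays. With probes averaged per gene, 0 of the 6025 genes passed. At an unadjusted p under 0.05 the probe counts were 1503 (fosBd/d), 578 (fosB-null), 1320 (difference as deposited) and 865 (sign turned). They fell to 709, 179, 539 and 361 without the dye term, and ranged from 351 to 973, 46 to 179, 149 to 827 and 156 to 730 with an array left out, where no dye term was fitted either. With the replicate block, which is also the labelled dye, they were 270, 47, 153 and 141. Replicate numbers come from accession order and pair nothing by design, and deviations of same-numbered arrays correlated at r = -0.61 over probes. The dye term by apparent turning is the crossed pairing.

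Turning the fosBd/d sign gave -0.50 for Jund, -0.47 for Fos, -0.29 for Maff, -0.21 and 0.37 for Maf probes 9308 and 10907, -0.12 for Atf2, -0.082 for Junb, -0.027 for Atf4 and a median of -0.12. Turning fosB-null gave 1.03 for Atf2, 0.43 for Fos, 0.32 for Maff, 0.066 and -0.17 for the Maf probes, 0.013 for Jund, -0.23 for Junb, -0.33 for Atf4 and a median of 0.013.

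With each array left out in turn, the median of the members ranged from 0.00 to 0.12 in fosBd/d and from -0.27 to -0.013 in fosB-null. In fosBd/d the sign turned for Atf4 (-0.068 to 0.12), Junb (-0.12 to 0.28) and Maf probe 9308 (-0.13 to 0.55), and in fosB-null for Jund (-0.10 to 0.078) and Maf probe 9308 (-0.63 to 0.49). Of the differences as deposited it turned for Junb (-0.35 to 0.048) and Maf probe 9308 (-0.28 to 0.83). With the fosB-null sign turned, it did so for Fos (-0.32 to 0.39), Maff (-0.33 to 0.27) and Maf probes 9308 (-0.42 to 0.70) and 10907 (-0.54 to 0.14). The Fos difference with the sign turned was -0.038 with arrays scaled to a common spread and -0.19 after quantile normalization. The cause was not tested.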
